A study of Rattus norvegicus with 12 samples.

Results

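The comparison set T cells recovered from the parenchyma of the central nervous system (CNS) against T cells recovered from blood. It used the 3 libraries titled CNS parenchyma and the 3 titled blood, 6 of the 12 libraries of the series. In every group the cells were CD4+ T cells directed at an antigen of the myelin sheath, myelin basic protein (MBP), and expressed green fluorescent protein. They were sorted at 4 °C from wild type Lewis rats during experimental autoimmune encephalomyelitis, and RNA libraries were made with a TruSeq messenger RNA protocol. The other 6 libraries came from cerebrospinal fluid (CSF) and spinal cord meninges, 3 each, and served to place the genes described here. The labels give no age, no time in the disease, no number of animals per library and no source of the T cells. Nor do they say that the 3 libraries of a compartment were separate animals. The p-values therefore rest on the spread between libraries, part of which can be technical.

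Experimental autoimmune encephalomyelitis is an autoimmune inflammation of the CNS that serves as a model of multiple sclerosis. MBP-specific CD4+ T cells reach the CNS through its vessels and coverings. Inside the tissue they can meet antigen-presenting cells that display their antigen, and such contact reactivates them. A T cell that is reactivated changes many transcripts at once, among them those for cytokines, adhesion molecules, metabolism and the cell cycle. The comparison of parenchyma with blood asks how the cells at the site of inflammation differ from those that circulate.

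Genes are known here by Ensembl rat identifiers only. Of 47357 rows in the reference table at hand, 0 carry such an identifier, so names, positions, functions and sequences are not given. For the same reason the cell type could not be checked against T cell markers, nor could markers of other cells be looked for. Identifiers are printed for 4 genes, the 2 with the largest rises and the 2 with the largest falls under the rule given below. The other genes are described by their rank and their values. In bulk RNA, fewer cells that carry a transcript and less of it per cell cannot be told apart.

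Total gene counts were 13267031 to 17438057 in blood and 15361310 to 17965790 in parenchyma. The share of entries listed as aligned to several places was 41.5%, 36.5% and 65.2% in blood replicates 1 to 3 and 35.8%, 37.2% and 42.3% in parenchyma. Blood replicate 3 stands apart in that share, and its part in the results was not tested beyond leaving it out. Levels are given as CPM, in which counts are scaled so that every library has the same total. Because gene lengths are not known here, a higher CPM of one gene than of another is a higher share of counts, not of molecules.

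T cells of the parenchyma differed from those of the blood in about as many genes upward as downward. Of 11498 genes tested, 2831 were higher in parenchyma (24.6%) and 2952 lower (25.7%), 50.3% in all, at an adjusted p under 0.05 in edgeR's quasi-likelihood test. Most of the changes were small. The median fold was 1.497 among the genes called higher and 1.54 among those called lower. The median log2 fold change over all genes tested was -0.002. Changes of over 2-fold were called for 782 genes upward (6.8%) and 865 downward (7.52%). Without blood replicate 3 these numbers were 809 and 805, so which direction held more of them turned on that library.

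**Figure D1:**
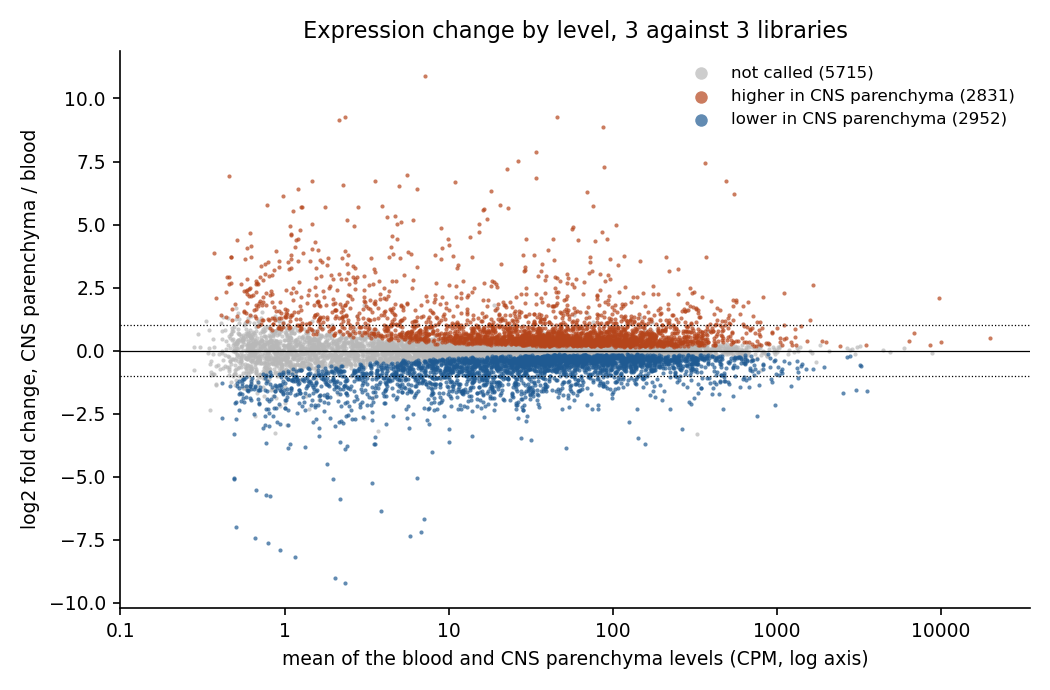
Each point is 1 of 11498 genes, with the mean of its blood and parenchyma levels across (CPM, log axis) and its log2 fold change of parenchyma against blood upward. The 2831 genes called higher and the 2952 called lower spread over the whole range of levels. Dotted lines mark 2-fold, and the points farthest from 0 lie mostly on the side of rises.

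Large changes were mostly rises. Rises of over 4-fold were called for 311 genes and falls for 172, and beyond 8-fold there were 153 rises and 47 falls. The number of falls was the less stable. Without blood replicate 2 there were 185 rises and 86 falls beyond 8-fold. Without the filter on low counts there were 230 and 143, and beyond 4-fold 421 and 350. Many of these genes had few counts. Among genes with a mean of at least 10 CPM in the group where they were higher, 444 rose and 474 fell more than 2-fold. More than 4-fold, 151 of them rose and 71 fell, and more than 8-fold 72 rose and 15 fell. The excess of large rises in such genes was present with each of the 6 libraries left out. Beyond 8-fold, 70 to 88 rose and 14 to 17 fell. The excess is a count, and no test of it was made.

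**Figure D2:**
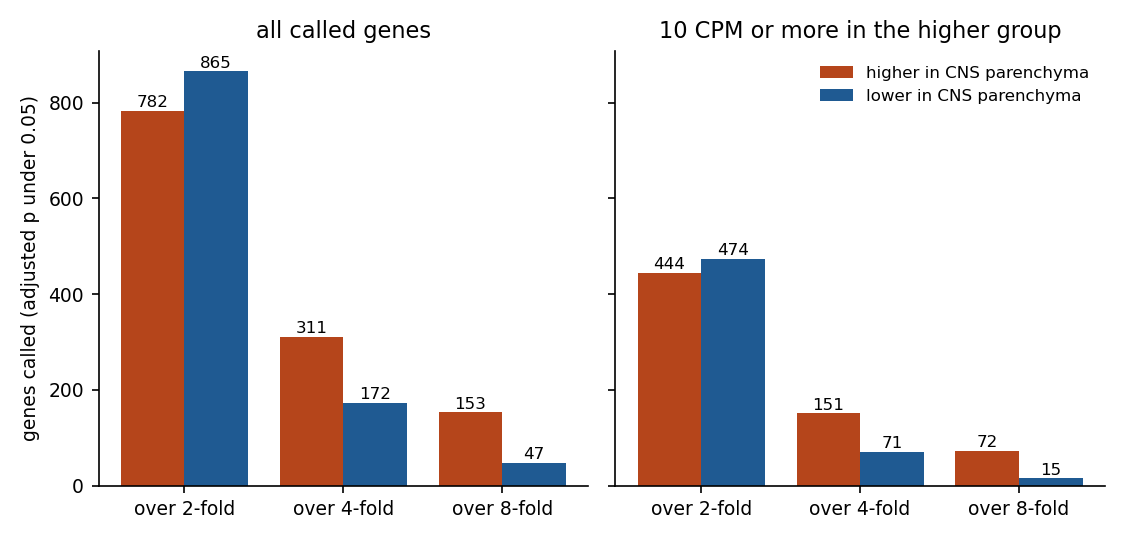
Bars give the number of genes called higher or lower in parenchyma than in blood past 2-fold, 4-fold and 8-fold, for all called genes on the left and for genes with at least 10 CPM in their higher group on the right. Falls are slightly more frequent past 2-fold (865 against 782) and rises past 8-fold (153 against 47).

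The share of genes called grew with the level of the gene. The genes were divided by their mean over all 12 libraries. Of 832 genes under 1 CPM, 14.3% were higher and 17.1% lower in parenchyma, with a median standard error of 0.45 on the log2 scale. Of 5713 genes between 10 and 100 CPM, 25.8% were higher and 26.3% lower, with a median standard error of 0.10. Of the 73 genes above 1000 CPM, 27 were higher and 22 lower. These 73 genes took 18.9% of gene counts in blood and 19.99% in parenchyma. Among these most abundant genes, 5 were called over 2-fold higher and 5 over 2-fold lower.

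The most abundant transcripts were largely common to both groups. Of the 15 genes with the most counts in parenchyma, 10 were also among the 15 with the most counts in blood, 66.7% of each list. Among the first 1000 genes, 833 were common to both. The same gene led in both groups. It stood at 17060, 16330 and 16960 CPM in blood and at 22830, 23320 and 22560 CPM in parenchyma. The groups did not overlap, and the rise on the log2 scale was 0.50 (SE 0.09), with an adjusted p of 0.00038. The share of counts held by the first 10 genes of each library was 7.57% ± 0.0835 (SD, n = 3) in blood and 9.75% ± 0.283 in parenchyma. All 3 parenchyma libraries lay above all 3 blood libraries in it. The two-sided exact permutation p was 0.1, the smallest that 3 against 3 libraries can give. The rest of the distribution differed less. The most abundant 732 ± 2.65 genes made up 50% of counts in parenchyma, against 745 ± 3.61 in blood.

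Of the 15 most abundant genes of parenchyma, 8 were called higher than in blood, 0 lower and 7 neither. Of the 15 most abundant genes of blood, 6 were called higher in parenchyma, 5 lower and 4 neither. Over all genes tested 24.6% were higher and 25.7% lower, and over the 73 genes above 1000 CPM 37.0% and 30.1%. Picking genes for a high level in 1 group favours that group, so these counts are a description. The gene ranked 2 in parenchyma was ranked 15 in blood. It stood at 2729, 6302 and 2459 CPM in blood and at 15100, 19480 and 12470 CPM in parenchyma. Blood replicate 2 was well above the other blood libraries, yet below every parenchyma library. Its log2 fold change was 2.08 (SE 0.31, adjusted p = 9.72e-05). The gene ranked 15 in parenchyma was ranked 293 in blood, with 542.6, 416.7 and 515.2 CPM in blood and 3184, 2468 and 2871 in parenchyma. Its log2 fold change was 2.59 (SE 0.19, adjusted p = 1.86e-07).

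Other abundant genes did not change by a detectable amount. The gene ranked 10 in parenchyma and 11 in blood stood at 4955, 3498 and 4955 CPM in blood and 4709, 3896 and 4362 in parenchyma. These ranges overlap fully, with an adjusted p of 0.973. The gene ranked 5 in parenchyma and 2 in blood stood at 9291 ± 311 CPM (SD, n = 3) in blood and 8356 ± 988 in parenchyma (adjusted p = 0.33). The calls for the genes ranked 4 and 11 in parenchyma were close to the threshold, with adjusted p-values of 0.0487 and 0.0324. Without blood replicate 2 they were 0.154 and 0.114. The gene ranked 4 also lost its call without blood replicate 3, without each parenchyma library, and with libraries scaled by size alone. Its adjusted p at those settings was 0.0745 to 0.154. The gene ranked 11 also lost its call without blood replicate 3, without parenchyma replicate 1, and with libraries scaled by size alone. Its adjusted p there was 0.0589 to 0.114.

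**Figure D3:**
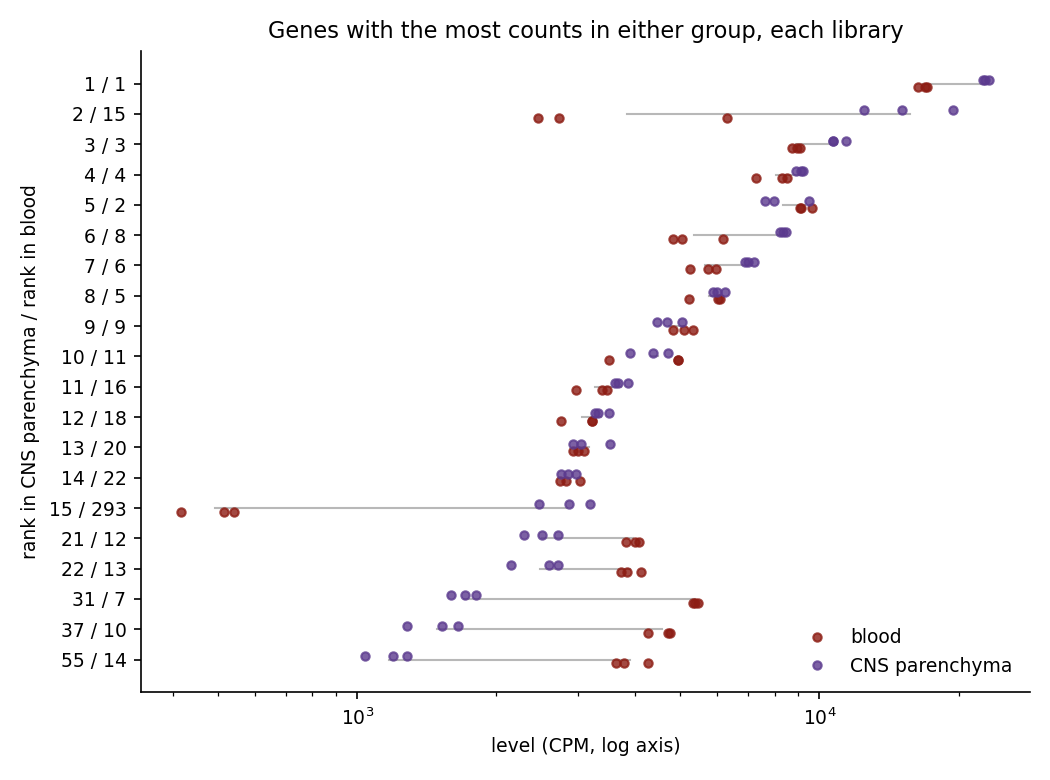
Each line is 1 of the 20 genes that were among the 15 most abundant of either group, labelled by its rank in parenchyma and in blood, and each dot is 1 library (CPM, log axis). The gene ranked 1 / 1 leads in all 6 libraries. The genes ranked 2 / 15 and 15 / 293 lie far higher in parenchyma, and those ranked 31 / 7, 37 / 10 and 55 / 14 far lower.

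A limited number of genes carried much of the shift in counts. Between the blood mean and the parenchyma mean, 15.1% of gene counts moved from some genes to others. Between pairs of libraries of these 2 groups the share was 14.0% to 17.6%, against 3.26% to 5.17% between pairs of blood libraries and 4.77% to 5.72% between pairs of parenchyma libraries. The upper 50% of the gain lay in 137 genes and that of the loss in 218. The 10 called genes with the largest gains in CPM took 4.99%, 5.26% and 4.88% of counts in the blood libraries and 8.18%, 8.58% and 7.82% in the parenchyma libraries. They took 6.28% ± 0.42 (SD, n = 3) in CSF and 6.73% ± 0.0864 in meninges. All 10 were separate between the groups, as were 24.5% of genes tested in that direction. Called genes picked for their gain in mean CPM are apt to be separate, so this supports nothing. Only 5 of these 10 rose more than 2-fold, since an abundant gene gains many counts through a small fold.

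The gene ranked 2 in parenchyma, described above, had the largest gain, of 11850 CPM. The gene in ninth place of the gains went from 13.8, 14.4 and 16.5 CPM in blood to 1161, 821.3 and 1245 in parenchyma. It moved from rank 7387 in blood to rank 66, at 193.2 CPM in CSF and 579.7 in meninges. Its log2 fold change was 6.23 (SE 0.49, adjusted p = 3.23e-07). The gene in eighth place stood at 600.1, 1686 and 644.1 CPM in blood and 1975, 2525 and 2115 in parenchyma. It was higher in CSF, at 3057 CPM, than in parenchyma, at 2205 CPM. It shared a pattern with the gene in first place. In each of the 4 compartments the library numbered 2 held the most of both genes. Over the 8077 genes with a mean of at least 10 CPM, library 2 was the highest in all 4 compartments for 670, library 1 for 433 and library 3 for 412. Library 2 was the lowest in all 4 for 972 genes, library 1 for 231 and library 3 for 358. Such a pattern was thus not particular to these 2 genes, and its cause was not tested. With the library number as a replicate block, the log2 fold changes of the 2 genes were 2.17 (SE 0.15) and 1.36 (SE 0.17), against 2.08 (SE 0.31) and 1.22 (SE 0.33) without it. Both values moved with blood replicate 2, and without that library they were 2.67 and 1.90. For the gene in eighth place the value was 0.97 without blood replicate 1.

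The 10 called genes with the largest losses took 3.08%, 3.04% and 3.05% of counts in blood and 1.25%, 1.25% and 1.36% in parenchyma. The groups were separate for all 10, as for 33.7% of genes tested in that direction. Here too the choice of the genes favours separation. Such shares rest on CPM, without the scaling used in the test. In CSF they took 1.71% ± 0.0392 (SD, n = 3) and in meninges 1.70% ± 0.0823. The largest loss was in a gene at 5330, 5373 and 5475 CPM in blood and 1597, 1713 and 1807 in parenchyma. It was ranked 7 in blood and 31 in parenchyma, with a log2 fold change of -1.61 (SE 0.10, adjusted p = 5.07e-08). The steepest fall among the 10 was from 1279, 1382 and 1242 CPM to 211.8, 222.1 and 194.8. That gene moved from rank 56 to rank 1002, with a log2 fold change of -2.58 (SE 0.11, adjusted p = 2.4e-09).

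The genes with the largest folds were taken among called genes with at least 10 CPM in the higher group and groups that did not overlap. There were 2079 such genes upward and 2300 downward, and the 15 with the largest change each way were described. The values of parenchyma and blood that follow chose these genes and support nothing. The genes just inside and just outside the upper list had log2 fold changes of 6.31 and 6.23. For the lower list the values were -3.07 and -2.91. The upper 15 were nearly silent in blood, with a median level of 0.311 CPM and 11 of them under 1 CPM. In parenchyma their levels ran from 11.1 to 963 CPM, with a median of 67.3. Together they took 15.9, 26.7 and 15.8 CPM in the blood libraries and 2329, 3169 and 2278 CPM in the parenchyma libraries. Their median fitted fold was 146, and the smallest was 79.3. The median is the same with the gene that had no count in blood placed at an assumed floor of 3 counts there.

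The 15 genes with the largest falls were not lost to the same degree. Their median fold was 12.2 and the smallest 8.39. They ran from 10.2 to 477 CPM in blood, with a median of 18.7, and from 0.0588 to 52.7 CPM in parenchyma, with a median of 2.03. Together they took 1371, 1349 and 1417 CPM in blood and 101.9, 134.2 and 127.4 CPM in parenchyma. The most abundant of them stood at 439.4, 502.6 and 488.1 CPM in blood and 43.7, 56.0 and 58.4 in parenchyma. Its log2 fold change was -3.12 (SE 0.14, adjusted p = 2.06e-09).

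**Figure D4:**
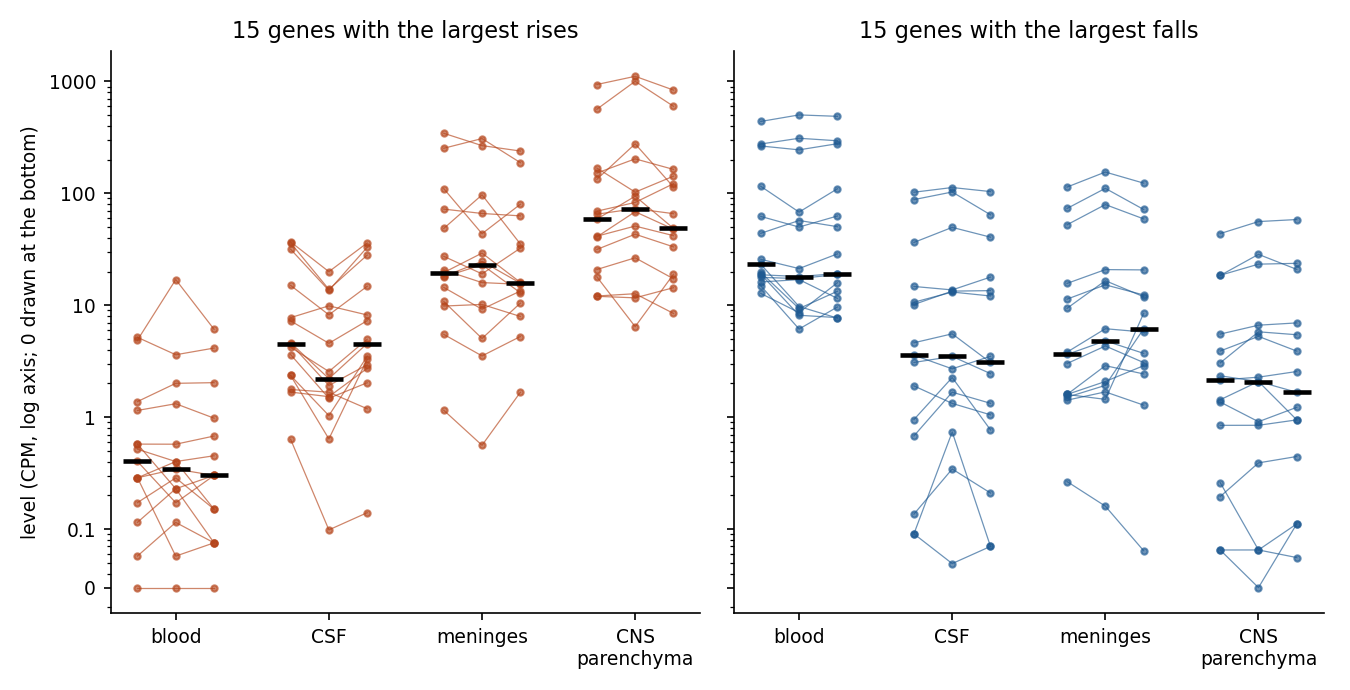
Thin lines join the 3 libraries of a compartment for each of the 15 genes with the largest rises (left) and the 15 with the largest falls (right) from blood to parenchyma, and black bars give the median gene of each library (CPM, log axis, 0 drawn at the bottom). The raised genes climb from blood through CSF and meninges to parenchyma. The median lowered gene is already low in CSF, at 3.26 CPM, and near that in meninges, at 4.05 CPM, but the 2 with the largest falls lie higher in meninges than in CSF.

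CSF and meninges libraries did not choose these genes, although the comparisons of CSF and of meninges with blood share the blood libraries. Median levels of the 15 raised genes were 3.80 CPM in CSF and 19.5 in meninges, between 0.311 in blood and 67.3 in parenchyma. For all 15, the means increased from blood over CSF and meninges to parenchyma. The low blood and high parenchyma ends of that order follow from the choice of the genes. Only the places of CSF and meninges were free, and a wide gap makes places between the ends likely. Their summed level was 132 ± 42.6 CPM (SD, n = 3) in CSF and 878 ± 125 in meninges. The lowest meninges library, at 736.8, held more than the highest CSF library, at 160.5. Against blood, 14 of the 15 were called higher in CSF (17.5% of genes tested were), and 15 of 15 in meninges (16.6% of genes tested). The blood libraries in these comparisons also chose the genes, so these counts support nothing.

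Although 1 fit held all 12 libraries, the comparison of meninges with CSF uses neither the blood nor the parenchyma levels that chose the genes. In it 14 of the 15 raised genes were higher in meninges, with 1 not called, against 1.97% of all genes tested. Their median log2 fold change between meninges and CSF was 2.42, against 0.004 over all genes. With a CSF or meninges library left out, 12 to 14 of the 15 were called. Among all 782 genes more than 2-fold higher in parenchyma than in blood, 141 (18.0%) were higher in meninges than in CSF and 0 were lower. That count was 83 without CSF replicate 2, 82 without meninges replicate 1 and 85 without meninges replicate 3, and 292 with the replicate block. At the same settings 1.02%, 0.952%, 0.973% and 5.25% of all genes tested were higher in meninges.

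Few of the lowered genes were called between CSF and meninges. In the 15 with the largest falls, CSF and meninges means lay between those of blood and parenchyma for 14. The wide gap by which these genes were chosen makes such places likely. Their summed level fell from 1379 ± 34.7 CPM (SD, n = 3) in blood to 289 ± 31.0 in CSF, and stood at 350 ± 66.2 in meninges and 121 ± 17.0 in parenchyma. All 15 were called lower than blood in CSF (20.0% of genes tested were) and in meninges (19.0%). High blood levels chose these genes and the same blood libraries enter both comparisons, so these calls support nothing. Between meninges and CSF, 0 of the 15 were lower in meninges, 2 were higher (1.97% of genes tested) and 13 were not called. The 2 were those with the largest falls, ENSRNOG00000049424 with a log2 fold change of 3.78 (SE 0.71, adjusted p = 0.0134) and ENSRNOG00000029886 with 3.61 (SE 0.88, adjusted p = 0.0497). Among the 865 genes more than 2-fold lower in parenchyma than in blood, 9 were lower in meninges than in CSF and 11 were higher. Those are 1.04% and 1.27%, against 0.539% and 1.97% of all genes tested. Without meninges replicate 1 the first of these counts was 0, and with the replicate block 41. The comparisons of parenchyma with CSF and with meninges use the parenchyma libraries that chose the genes, and nothing is read from them. In these, 9 of the 15 lowered genes were lower in parenchyma than in CSF (15.6% of genes tested) and 12 lower than in meninges (5.37%). Of the 15 raised genes, 15 were higher than in CSF (17.1%) and 13 higher than in meninges (6.58%).

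ENSRNOG00000022298 had the largest fitted rise. It had 0 counts in each blood library and 276, 99 and 340 counts in parenchyma, or 17.9, 6.45 and 18.9 CPM. In CSF it had 14, 2 and 2 counts and in meninges 13, 7 and 26. It was thus without a count in blood and low in CSF and meninges, at means of 0.291 and 1.13 CPM. Among the parenchyma libraries it was lowest in replicate 2 (adjusted p of parenchyma against blood = 5.26e-06). Set against an assumed floor of 3 counts over the 3 blood libraries, it was 235-fold higher in parenchyma. The lower limit of the 95% interval for its ratio of counts was 191. Neither value covers the spread between libraries. Placed at the value set by the floor, the gene would rank 4 among the 15. ENSRNOG00000011406 had 5, 1 and 1 counts in blood and 1066, 1275 and 2192 in parenchyma, or 0.287, 0.0573 and 0.0754 CPM against 69.3, 83.0 and 122.0. In CSF it stood at 2.36, 0.639 and 3.29 CPM and in meninges at 27.4, 19.1 and 32.4, with no overlap between any of the 4 compartments. The ratio of parenchyma to blood was 640, with a 95% counting interval from 310 to 1592 (adjusted p = 1.76e-08). Without blood replicate 1, which held 5 of the 7 blood counts, its log2 fold change was 10.34 in place of 9.27.

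ENSRNOG00000049424 had the largest fall with all libraries in the fit. Without parenchyma replicate 1 the gene ranked 3 among the falls came first, with a log2 fold change of -7.635 in place of -6.70, ahead of -7.37 for ENSRNOG00000049424 and -7.06 for ENSRNOG00000029886. ENSRNOG00000049424 had 330, 142 and 103 counts in blood and 1, 0 and 2 in parenchyma, which is 19.0, 8.14 and 7.76 CPM against 0.0651, 0 and 0.111. The ratio of blood to parenchyma was 194, with a counting interval from 66.1 to 944 (adjusted p = 6.29e-06). Leaving out parenchyma replicate 3 gave a log2 fold change of -8.12 in place of -7.35. ENSRNOG00000029886 had 404, 170 and 102 counts in blood and 1, 1 and 2 in parenchyma. The ratio was 171, with a counting interval from 66.5 to 630 (adjusted p = 5.82e-05). Without blood replicate 1 its log2 fold change was -6.56 in place of -7.20. Both genes were highest in blood replicate 1 and, among the tissue libraries, in meninges replicate 3, with 6.16 and 8.46 CPM there. The other meninges libraries held 1.51 and 1.92 CPM of the first gene and 1.60 and 1.44 CPM of the second. Meninges replicate 3 had 18299 genes detected, the most of all 12 libraries. Blood replicate 1 had 16096, the most of the blood libraries. Whether this bears on the 2 genes was not tested. The gene ranked 3 among the falls stood at 19.6, 9.35 and 13.3 CPM in blood and under 0.3 CPM in each of the 9 CSF, meninges and parenchyma libraries.

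**Figure D5:**
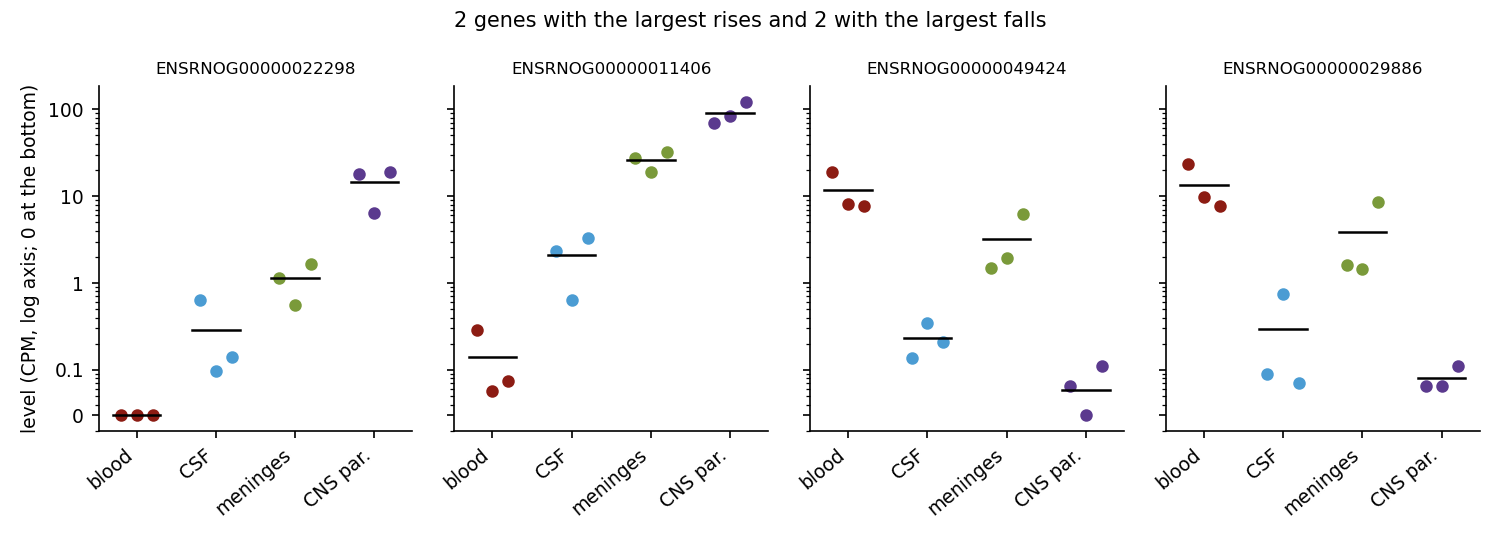
Each dot is 1 library and each bar the mean of a compartment (CPM, log axis, 0 drawn at the bottom) for the 2 genes with the largest rises and the 2 with the largest falls. ENSRNOG00000022298 is at 0 in blood and between 6.45 and 18.9 CPM in parenchyma. ENSRNOG00000049424 and ENSRNOG00000029886 have a higher mean in meninges than in CSF and are near 0 in parenchyma.

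The most changed genes varied more between libraries than changed genes in general. The median coefficient of variation of the 15 raised genes in parenchyma was 21.8%, against 8.52% for the 2307 genes called higher with at least 10 CPM in some compartment. For the 15 lowered genes in blood it was 14.96%, against 5.75% for the 2320 such genes called lower. Of the 15 raised genes 11 were highest in parenchyma replicate 2. Over the 2307 genes that library was the highest for 42.6%. The lowest parenchyma library of a raised gene still held at least 49.4 times the highest blood library, for those with counts in blood. For the lowered genes the lowest blood library held at least 4.49 times the highest parenchyma library.

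Few genes were found on 1 side only, and nearly all of them at low levels. No count in blood and at least 1 in each parenchyma library was seen for 81 genes, with a median of 0.127 CPM in parenchyma. Of these 5 reached 1 CPM and 1 reached 10 CPM. The reverse was seen for 142 genes, with a median of 0.111 CPM in blood, 8 of them at 1 CPM or more and 0 at 10 CPM. Filtering left 4 and 7 of these genes in the test, and all 11 were called, against 50.3% of all genes tested. Picking genes with no count in 1 group all but fixes such calls, so they support nothing. A count of 0 in 1 library allows up to 0.167 to 0.226 CPM at these depths, so that most of these genes lie near the limit of detection.

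Many genes were shown to differ little. For 5670 genes (49.3% of those tested), the 95% interval of the fold lay within 1.5-fold either way. Of these 4020 were not called and 1650 were called, with changes that were small. A call means that a change was large for its standard error. Such a change can still be smaller than the spread between libraries of a group. The other 1695 genes that were not called had intervals that reached past 1.5-fold, so that a change of that size lies within their intervals.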

How the data were processed

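The authors deposited raw read counts for 26405 Ensembl rat genes per library. Per the submitters' processing notes the tools included HTSeq, STAR, SAMtools, DESeq2 and CASAVA 1.8.2, whose roles are not stated. Build, annotation and strand use were not given in the sources used here. Reads aligned to several places and the other summary lines were left out of library sizes and tests, which under-counts genes that have near-identical copies. Of all entries in the 6 files, 15.5% to 21.9% were outside any gene, 0.0412% to 0.0911% ambiguous and 35.8% to 65.2% aligned to several places.

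Tests were run with edgeR 4.0.16 in R 4.3.3. Filtering with filterByExpr left 11498 genes, with at least 99.9% of gene counts. All 12 libraries entered 1 quasi-likelihood fit with TMM scaling and the compartment as the only term. The contrast was parenchyma minus blood, two-sided, with Benjamini-Hochberg adjustment over all genes tested. Standard errors come from the F statistic. CPM use total gene counts, without TMM factors. Intervals of ratios are exact 95% binomial intervals, and they and the floor of 3 counts cover counting error only. The 95% intervals of folds are normal ones from these standard errors.

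Genes to describe were the 15 with the largest change each way (called, at least 10 CPM in the higher group, no overlap), the 15 most abundant of each group and the 10 with the largest gain and loss in CPM. Gene lists and markers that were planned need names and were not used. Members and lists were chosen with earlier results of these data known. Deviations of same-numbered blood and parenchyma libraries from their group means correlated at 0.193, 0.323 and 0.205, over the 0.1 asked of each pair. The numbers were therefore taken as a possible pairing. The main fit and its p-values leave that pairing out, and only the replicate block uses it. That pairing comes from the data, since the labels do not state it. Alternatives were other scalings, no filter, DESeq2 1.42.0, the 6 libraries alone, a replicate block, stricter thresholds and each library left out. The fit was tested on simulated data for this comparison, on 11366 genes. It recovered 53.7% of 1.5-fold, 87.9% of 2-fold and 93.9% of 4-fold changes, and 6.59% of its calls were false. Among those genes the simulation had changed only 67 by 1.5-fold, 66 by 2-fold and 66 by 4-fold. In the data 50.3% of genes tested were called. The simulated counts also held no effect of library number. The shares recovered and false therefore need not hold for the data.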

Additional observations from a re-analysis of the deposited data

How the results depend on the processing

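The number of genes called between parenchyma and blood was 5783. It was 5066 to 5461 with 1 library left out, with 2470 to 2729 higher and 2568 to 2732 lower, and 783 to 857 and 805 to 972 of them over 2-fold. Under the other settings, apart from a minimum fold, it ran from 4274 at an adjusted p under 0.01 to 6663 with the replicate block. All 5783 genes were among those 6663, so the pairing ended no call. Requiring a change beyond 1.5-fold left 1747 genes, 837 higher and 910 lower, which follows from its construction. The share of genes higher was 48.9%, 42.3% with libraries scaled by size alone and 51.7% without the filter. Of the 15 most raised and the 15 most lowered genes, 14 or 15 of each were again in the list under each setting. The 58 genes described gave 726 values on the same side of the threshold and in the same direction, 20 calls lost and 4 gained. In 4 cases the sign turned. All 4 were for abundant genes that were never called. The gene ranked 10 in parenchyma had log2 fold changes of -0.049 by library size alone, -0.125 without blood replicate 2 and -0.041 without parenchyma replicate 1, and was highest, at 0.088, without blood replicate 1. The gene ranked 14 had -0.0002363 by library size alone. Values between meninges and CSF were added after the data were seen. Of the genes more than 2-fold higher in parenchyma, 82 to 166 were higher in meninges with a library left out, 286 without the filter and 292 with the replicate block. Of those more than 2-fold lower, 0 to 8 were lower in meninges with a library left out, 29 without the filter, 41 with the replicate block and 14 with DESeq2. The cause was not tested. Depth limits genes under 1 CPM, whose median standard error was 0.45 on the log2 scale.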
